A study of Homo sapiens with 12 samples.

Results

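The genes that set how much eukaryotic initiation factor 2 (eIF2) is phosphorylated were followed through ER stress in HT29, an established human colorectal adenocarcinoma line. They were chosen by symbol: the 4 eIF2α kinases EIF2AK1, EIF2AK2, EIF2AK3 and EIF2AK4, the phosphatase regulatory subunits PPP1R15A and PPP1R15B, eIF2α itself (EIF2S1) and the eIF2B subunits EIF2B1, EIF2B4 and EIF2B5. All 10 were found among the 20015 genes of the count table, and all 10 were among the 11323 genes that passed the filter on low counts. The 12 libraries formed 4 groups of 3. QRICH1 KO Tm and QRICH1 KO DMSO cells carried a lentiviral guide against QRICH1, which encodes a glutamine-rich protein that the series studies in ER stress, and were given tunicamycin (Tm) at 0.3 µg/ml or its solvent DMSO for 14 h. WT Tm and WT DMSO cells carried a non-targeting guide and had the same treatments. All 4 groups expressed Cas9 and had been transduced, so WT names cells with a non-targeting guide rather than untouched HT29 cells. The labels do not say whether the QRICH1 KO cells were a clone or a mixed population.

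When proteins misfold in the ER, amino acids run short, double-stranded RNA appears or mitochondria and heme supply fail, a dedicated kinase phosphorylates the α subunit of eIF2. Phosphorylated eIF2 then binds and blocks eIF2B, the exchange factor that reloads eIF2 with GTP, so that most initiation slows while a few mRNAs such as that of ATF4 are translated better. Protein phosphatase 1, guided by PPP1R15A (GADD34) or PPP1R15B (CReP), removes the phosphate again. Tunicamycin stops N-glycans from being built and is a standard way to load the ER with unfolded proteins. RNA levels were measured here, and neither phosphorylation nor protein was.

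The promoter sequences of the genes whose RNA changed, and that of PPP1R15B as the paralog of PPP1R15A whose change did not pass the test, are given first, because these 4 stretches lie next to the starts of the RNAs described below. RefSeq promoters (GRCh38.p14) were matched for 9 of the 10 genes, all but EIF2AK1. Each sequence runs 5′ to 3′ on the strand of its gene, within the 250 bases before the RefSeq start and upstream of every annotated start of the gene in GENCODE 29. The stretches are chr2:88627577-88627714, minus strand, for EIF2AK3; chr15:39933865-39934114, plus strand, for EIF2AK4; chr19:48872171-48872391, plus strand, for PPP1R15A; and chr1:204411818-204412067, minus strand, for PPP1R15B. Capitals mark a match to one of the motifs searched.
EIF2AK3: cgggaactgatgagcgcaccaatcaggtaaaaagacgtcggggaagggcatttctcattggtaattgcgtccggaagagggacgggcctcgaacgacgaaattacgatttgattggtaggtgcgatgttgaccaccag
EIF2AK4: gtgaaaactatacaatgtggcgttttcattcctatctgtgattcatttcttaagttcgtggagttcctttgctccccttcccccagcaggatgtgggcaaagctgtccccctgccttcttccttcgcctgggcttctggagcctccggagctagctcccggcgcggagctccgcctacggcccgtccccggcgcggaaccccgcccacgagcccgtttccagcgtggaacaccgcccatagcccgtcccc
PPP1R15A: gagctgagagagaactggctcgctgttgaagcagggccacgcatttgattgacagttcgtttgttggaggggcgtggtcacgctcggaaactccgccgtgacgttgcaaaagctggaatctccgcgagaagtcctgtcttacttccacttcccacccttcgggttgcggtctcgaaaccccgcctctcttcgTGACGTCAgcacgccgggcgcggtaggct
PPP1R15B: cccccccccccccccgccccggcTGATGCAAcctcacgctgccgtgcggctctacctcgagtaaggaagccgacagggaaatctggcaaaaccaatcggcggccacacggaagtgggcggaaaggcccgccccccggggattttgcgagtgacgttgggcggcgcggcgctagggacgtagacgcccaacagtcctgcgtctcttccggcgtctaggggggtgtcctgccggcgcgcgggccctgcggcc
The motifs were searched on both strands in the 250 bases before each RefSeq start. PPP1R15A held the cyclic AMP response element TGACGTCA at positions -58 to -51 relative to the RefSeq start, and 1.65% of all 35116 promoters held that element. PPP1R15B held TGATGCAA, a match to the C/EBP-ATF response element TGATGNAA, at positions -227 to -220, and 3.14% of all promoters held it. The unfolded protein response element TGACGTGG, which 0.612% of all promoters held, was not in any of the 9 windows. Neither match overlapped another of these motifs. A match describes letters in a window, not a site in use.

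Depth and identity of the libraries set the limits of what follows. Totals lay between 6856736 and 17861844 counts. Levels are in CPM, each library's counts brought to a common total with TMM factors, and a gene with no count could have up to 0.168 CPM in the deepest library and 0.438 CPM in the shallowest (3 counts, counting error only). Library 3 of QRICH1 KO Tm and library 3 of QRICH1 KO DMSO had counts for 14813 and 15340 genes, against 13124 to 14094 in the other libraries. QRICH1 RNA spanned 19.2 to 26.8 CPM in QRICH1 KO Tm, 23.3 to 24.8 CPM in QRICH1 KO DMSO, 25.7 to 31.0 CPM in WT Tm and 22.7 to 35.0 CPM in WT DMSO. The genotypes were not separated by QRICH1 RNA in the edgeR test (adjusted p = 0.352 under Tm and 0.577 under DMSO), and a frameshift need not lower an mRNA, so the labels are weakly checked. Of 10 markers of colonic epithelium, 8 passed the count filter, including KRT8 and EPCAM, whereas CDX1 and GPA33 did not. CDX2 passed at a low level, with group means of 0.602 to 0.776 CPM. Of 10 markers of immune, stromal and endothelial cells, CD14 and LUM passed, CD3E was at 0 in every library, and the summed level of the list stayed within 1.91 to 5.15 CPM in QRICH1 KO Tm, 2.7 to 4.63 CPM in QRICH1 KO DMSO, 1.87 to 2.64 CPM in WT Tm and 3.35 to 4.49 CPM in WT DMSO. The replicates are biological, per the series text.

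Tm raised the RNA of 1 kinase and 1 phosphatase subunit and lowered that of another kinase, in both genotypes. EIF2AK3, which encodes the ER-resident kinase PERK, and PPP1R15A, which encodes the inducible subunit GADD34, rose about equally on the log2 scale, while EIF2AK4, which encodes the amino acid sensor GCN2, fell by less. The 7 other genes were not called in either genotype. Called means an adjusted p under 0.05 in edgeR's quasi-likelihood test with Benjamini-Hochberg adjustment over all 11323 genes, and every adjusted p below is of that kind. In QRICH1 KO cells 3 of the 10 genes were called (2 higher, 1 lower), where 15.6% of all genes tested were called (9.09% higher, 6.53% lower). Without overlap between Tm and DMSO libraries, 3 of the 10 genes were higher and 1 was lower there, beside 16.9% and 15.5% of all genes tested. In WT cells 3 of 10 were called (2 higher, 1 lower), where the share of all genes tested was 23.8% (12.6% higher, 11.1% lower). Without overlap, 2 were higher and 1 was lower, beside 19.0% and 18.5% of all genes tested. The median log2 fold change of the 10 genes was -0.016 in QRICH1 KO and -0.006 in WT, beside -0.004 and -0.024 over all genes tested. In bulk RNA, a change in the share of cells with an RNA and a change in RNA per cell cannot be told apart.

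**Figure D1:**
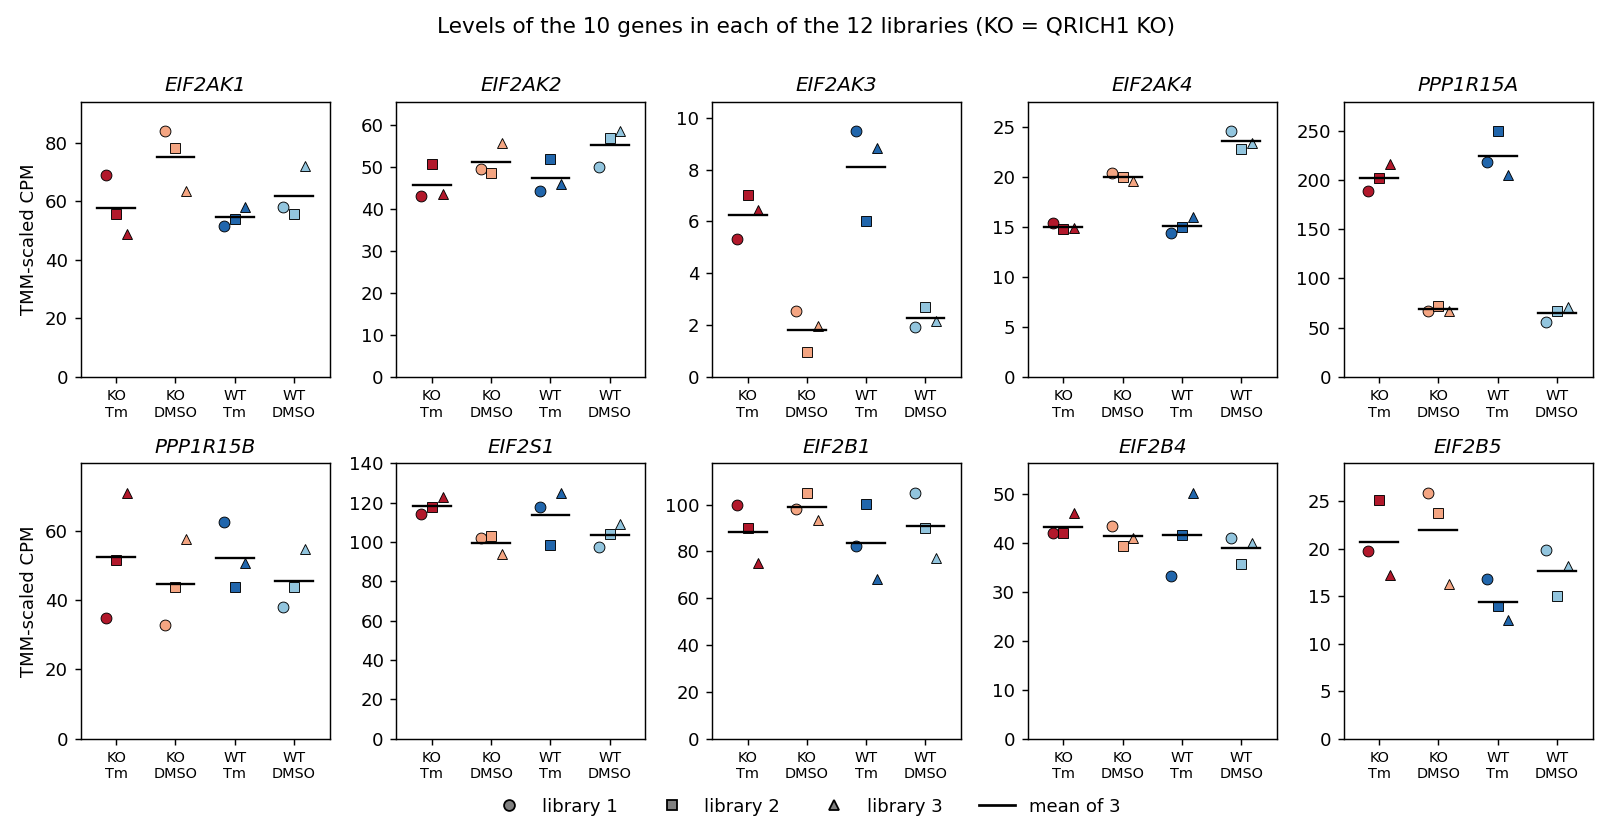
TMM-scaled CPM (vertical axes, from 0) of the 10 genes in each library, by group, with circles, squares and triangles for libraries 1 to 3 and bars for the mean of 3. EIF2AK3 and PPP1R15A lie higher in every Tm library than in any DMSO library and EIF2AK4 lies lower, while the groups of most other genes overlap.

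EIF2AK3 (ENSG00000172071.12, chr2:88556741-88627576, minus strand, hg38) encodes PERK, an ER membrane protein whose luminal part senses unfolded proteins and whose cytosolic part is the kinase. Its level was 5.32, 7.02 and 6.44 CPM in QRICH1 KO Tm, against 2.54, 0.97 and 1.94 CPM in QRICH1 KO DMSO. In WT Tm it was 9.49, 6.01 and 8.82 CPM, against 1.91, 2.68 and 2.16 CPM in WT DMSO. Every Tm library lay above every DMSO library, and the lowest value of all was library 2 of QRICH1 KO DMSO. Tm raised EIF2AK3 3.38-fold in QRICH1 KO (log2 1.76, SE 0.313, adjusted p = 7.30e-04) and 3.51-fold in WT (log2 1.81, SE 0.314, adjusted p = 3.15e-04). These are the least deeply counted of the 10 genes, with 14 to 115 reads per library, so the intervals are wide: 1.10 to 2.41 in QRICH1 KO and 1.15 to 2.47 in WT on the log2 scale (95%). Of its exonic bases, 14.37% lie opposite the antisense gene AC104134.1, and the library chemistry does not keep the strand, so reads of the pair cannot be told apart there.

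None of the other 3 kinases was called higher with Tm. EIF2AK4 (ENSG00000128829.12, chr15:39934146-40035591, plus strand) encodes GCN2, which is activated by uncharged tRNA and stalled ribosomes. It had 15.4, 14.8 and 14.9 CPM in QRICH1 KO Tm and 20.4, 20.0 and 19.6 CPM in QRICH1 KO DMSO. In WT it had 14.4, 15.0 and 16.0 CPM under Tm and 24.6, 22.8 and 23.4 CPM under DMSO. The 6 Tm libraries of both genotypes lay within 14.4 to 16.0 CPM, below all 6 DMSO libraries. EIF2AK4 was 1.33-fold lower with Tm in QRICH1 KO (log2 -0.41, SE 0.13, adjusted p = 0.0379) and 1.56-fold lower in WT (log2 -0.64, SE 0.132, adjusted p = 0.00142). The fall in QRICH1 KO was close to the threshold and lost its call in 9 of 13 alternative settings, with adjusted p up to 0.136 and a log2 fold change between -0.45 and -0.40 throughout, among them each of the 6 in which 1 QRICH1 KO library was left out (adjusted p 0.0621 to 0.106). The fall in WT kept its call in all 12 alternatives.

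EIF2AK1 (ENSG00000086232.13, chr7:6022244-6059230, minus strand) encodes HRI, which responds to heme shortage and to mitochondrial stress relayed by OMA1 and DELE1. It had 68.9, 55.6 and 48.7 CPM in QRICH1 KO Tm, against 84.0, 78.1 and 63.4 CPM in QRICH1 KO DMSO, and 51.5, 53.8 and 58.2 CPM in WT Tm, against 58.0, 55.8 and 72.0 CPM in WT DMSO. Treatment groups overlapped in both genotypes, and the log2 fold changes of -0.38 (SE 0.144, adjusted p = 0.0837) in QRICH1 KO and -0.19 (SE 0.146, adjusted p = 0.395) in WT were not called. The value in QRICH1 KO crossed the threshold in 3 of 13 alternatives, without library 1 of QRICH1 KO Tm (adjusted p = 0.0274), without library 3 of QRICH1 KO DMSO (0.0331) and with no filter on low counts (0.0475). EIF2AK2 (ENSG00000055332.18, chr2:37099210-37157065, minus strand), which encodes the double-stranded RNA sensor PKR, spanned 43.2 to 50.7 CPM in QRICH1 KO Tm, 48.6 to 55.8 CPM in QRICH1 KO DMSO, 44.3 to 51.9 CPM in WT Tm and 50.1 to 58.6 CPM in WT DMSO. Its groups overlapped, and its log2 fold changes with Tm, -0.17 in QRICH1 KO (adjusted p = 0.377) and -0.22 in WT (adjusted p = 0.194), were not called. Of the exonic bases of EIF2AK1, 9.59% lie opposite AIMP2.

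To compare levels between kinases, CPM were divided by the length of each gene's merged exons in kilobases. EIF2AK1 made up most of the summed kinase level in every library, with a mean of 60.7% in QRICH1 KO Tm, 66.4% in QRICH1 KO DMSO, 57.8% in WT Tm and 59.6% in WT DMSO. EIF2AK3 supplied 6.83 ± 1.39% in QRICH1 KO Tm and 1.64 ± 0.674% in QRICH1 KO DMSO, and 8.8 ± 2.08% in WT Tm and 2.23 ± 0.478% in WT DMSO (SD, n = 3). EIF2AK4 supplied 7.4 ± 0.673% in QRICH1 KO Tm, 8.26 ± 0.527% in QRICH1 KO DMSO, 7.44 ± 0.0802% in WT Tm and 10.6 ± 1.17% in WT DMSO. PERK RNA was thus the rarest kinase RNA under DMSO and stood near GCN2 RNA under Tm: the ratio of EIF2AK3 to EIF2AK4 per exon length was 0.92 ± 0.147 in QRICH1 KO Tm, against 0.199 ± 0.0851 in QRICH1 KO DMSO, and 1.18 ± 0.282 in WT Tm, against 0.211 ± 0.0449 in WT DMSO. With the longest annotated transcript as the length, the ratio was 0.495 ± 0.0789 in QRICH1 KO Tm and 0.636 ± 0.152 in WT Tm, so in WT Tm the length used decides which mean is higher, while in QRICH1 KO Tm EIF2AK3 had the lower mean with both lengths. The summed level of the 4 kinases was 17.1 ± 1.73 CPM per kb in QRICH1 KO Tm, 20.3 ± 1.66 in QRICH1 KO DMSO, 17.0 ± 0.692 in WT Tm and 18.7 ± 1.83 in WT DMSO.

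**Figure D2:**
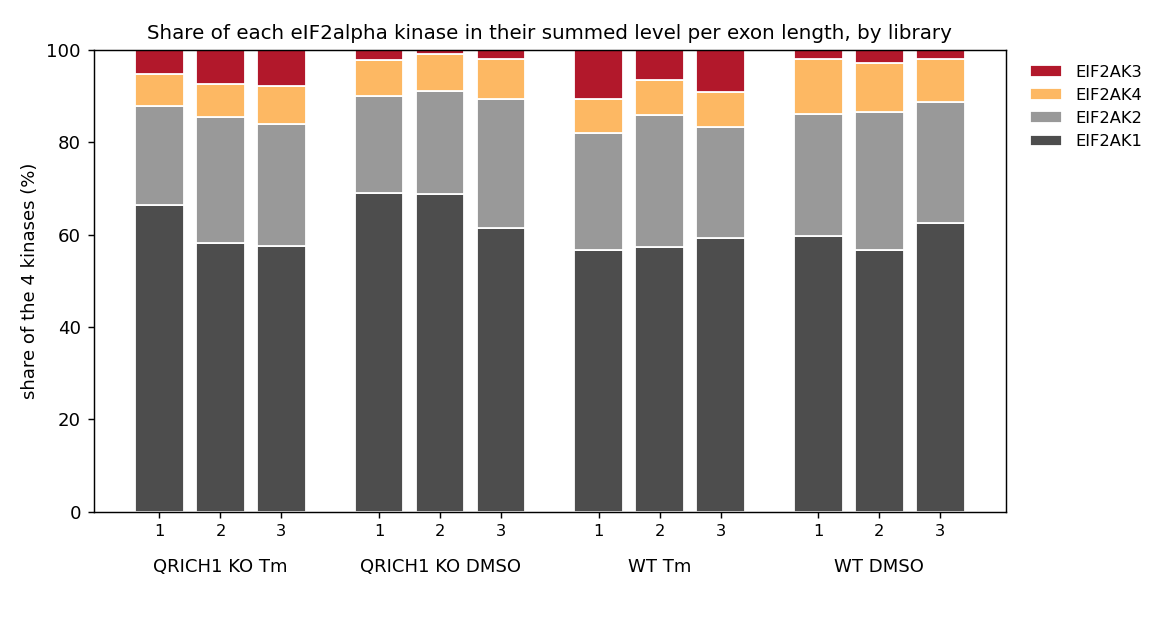
Share (%, vertical axis) of EIF2AK1, EIF2AK2, EIF2AK4 and EIF2AK3 in their summed CPM per kb of merged exons, stacked for each of the 12 libraries (horizontal axis, by group). EIF2AK1 is the largest part of every bar, and the EIF2AK3 part averages 6.83% in QRICH1 KO Tm against 1.64% in QRICH1 KO DMSO, and 8.8% in WT Tm against 2.23% in WT DMSO.

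Of the phosphatase subunits, PPP1R15A rose in both genotypes and PPP1R15B was not called in either. PPP1R15A (ENSG00000087074.8, chr19:48872392-48876057, plus strand) encodes GADD34, which is made during stress and brings protein phosphatase 1 to eIF2α. It had 189, 202 and 217 CPM in QRICH1 KO Tm, against 66.4, 71.8 and 67.1 CPM in QRICH1 KO DMSO, and 219, 250.1 and 205 CPM in WT Tm, against 55.7, 66.4 and 71.1 CPM in WT DMSO. No Tm library came near a DMSO library, and replicates lay closer together than those of EIF2AK3. PPP1R15A rose 2.96-fold in QRICH1 KO (log2 1.57, SE 0.116, adjusted p = 1.47e-08) and 3.49-fold in WT (log2 1.80, SE 0.118, adjusted p = 1.50e-09).

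PPP1R15B (ENSG00000158615.9, chr1:204403387-204411791, minus strand) encodes CReP, the subunit that acts in unstressed cells. It had 34.9, 51.7 and 71.0 CPM in QRICH1 KO Tm and 32.8, 43.7 and 57.7 CPM in QRICH1 KO DMSO, and 62.5, 43.8 and 50.6 CPM in WT Tm and 38.0, 43.7 and 54.9 CPM in WT DMSO. The groups overlapped widely, and the highest values of both QRICH1 KO groups were in library 3. Its log2 fold changes of 0.23 in QRICH1 KO (interval -0.25 to 0.71, adjusted p = 0.553) and 0.20 in WT (interval -0.29 to 0.68, adjusted p = 0.598) were not called. The ratio of PPP1R15A to PPP1R15B per exon length was 6.97 ± 2.01 in QRICH1 KO Tm against 2.72 ± 0.727 in QRICH1 KO DMSO, and 7.48 ± 1.93 in WT Tm against 2.41 ± 0.198 in WT DMSO (SD, n = 3). The ratio in every Tm library was above that in every DMSO library.

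**Figure D3:**
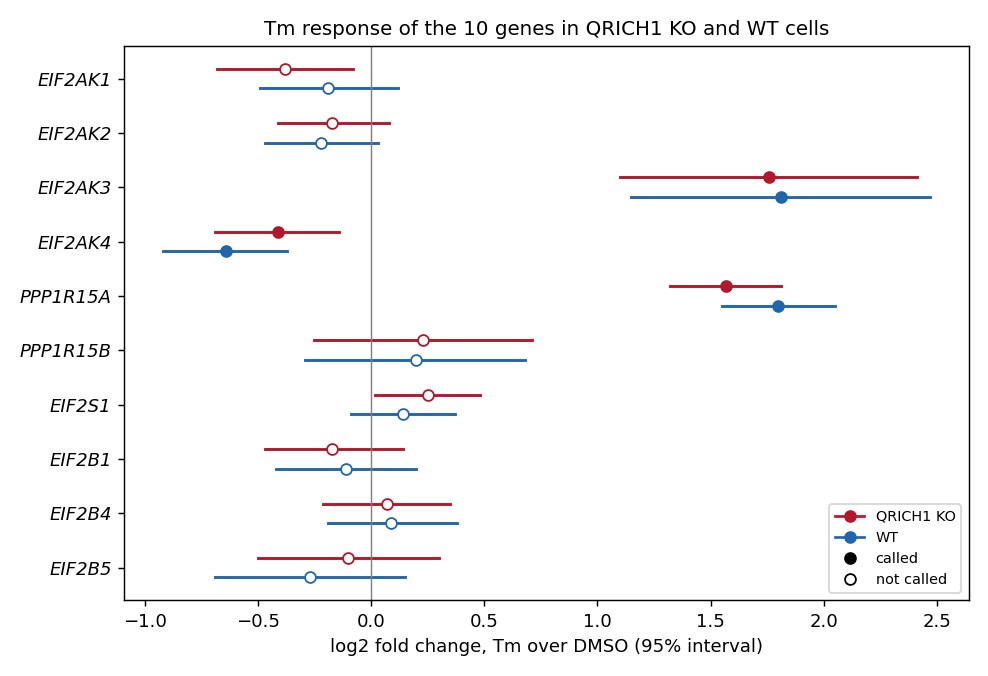
Log2 fold change of Tm over DMSO (horizontal axis) with its 95% interval for the 10 genes, in QRICH1 KO (red) and WT (blue), filled where called. EIF2AK3 (1.76 and 1.81), PPP1R15A (1.57 and 1.80) and EIF2AK4 (-0.41 and -0.64) are the filled points, in QRICH1 KO and WT in that order, and all other intervals lie within 1 log2 unit of 0.

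EIF2S1, EIF2B1, EIF2B4 and EIF2B5 were not called with Tm in either genotype. They encode the substrate of the kinases and part of eIF2B, the target of phosphorylated eIF2. The other eIF2B subunits, EIF2B2 and EIF2B3, are described below, and EIF2B3 was called higher in WT. EIF2S1 (ENSG00000134001.13, chr14:67359997-67386516, plus strand) encodes eIF2α. Its level was 114, 118 and 123 CPM in QRICH1 KO Tm, against 102, 103 and 93.8 CPM in QRICH1 KO DMSO, and 118, 98.7 and 125 CPM in WT Tm, against 97.3, 104 and 109 CPM in WT DMSO. The QRICH1 KO Tm libraries lay above the QRICH1 KO DMSO libraries without overlap, as did those of 16.9% of all genes tested, but the log2 fold change of 0.25 (SE 0.108) had an adjusted p of 0.13. In WT the groups overlapped, and the log2 fold change was 0.14 (SE 0.108, adjusted p = 0.396).

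EIF2B1 and EIF2B4 encode the α and δ subunits of the regulatory part of eIF2B, which senses phosphorylated eIF2, and EIF2B5 encodes the ε subunit, which carries out nucleotide exchange. EIF2B1 (ENSG00000111361.12, chr12:123620406-123633766, minus strand) spanned 74.9 to 99.6 CPM in QRICH1 KO Tm, 93.4 to 105 CPM in QRICH1 KO DMSO, 68.3 to 100.2 CPM in WT Tm and 77.0 to 105 CPM in WT DMSO. EIF2B4 (ENSG00000115211.15, chr2:27364352-27370486, minus strand) spanned 41.9 to 46.1 CPM in QRICH1 KO Tm, 39.4 to 43.5 CPM in QRICH1 KO DMSO, 33.2 to 50.2 CPM in WT Tm and 35.7 to 41.0 CPM in WT DMSO. For both genes the Tm and DMSO libraries overlapped in each genotype. The log2 fold changes with Tm were -0.17 in QRICH1 KO and -0.11 in WT for EIF2B1, and 0.07 in QRICH1 KO and 0.09 in WT for EIF2B4, with adjusted p between 0.498 and 0.792. Of the exonic bases of EIF2B1, 14.78% lie opposite DDX55. EIF2B5 (ENSG00000145191.14, chr3:184135038-184146112, plus strand) had 19.8, 25.1 and 17.2 CPM in QRICH1 KO Tm, 25.9, 23.8 and 16.3 CPM in QRICH1 KO DMSO, 16.8, 14.0 and 12.5 CPM in WT Tm and 19.9, 15.0 and 18.2 CPM in WT DMSO. Tm and DMSO libraries overlapped in both genotypes (log2 -0.10 in QRICH1 KO, adjusted p = 0.784, and -0.27 in WT, adjusted p = 0.36).

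Per kilobase of merged exons the means of the 10 genes stood in the same order in both DMSO groups, and PPP1R15A came first under Tm. EIF2B1 was first in QRICH1 KO DMSO (27.3 ± 1.69 CPM per kb) and in WT DMSO (24.9 ± 3.79), followed by PPP1R15A (22.1 ± 0.954 and 20.8 ± 2.55), EIF2S1 (17.6 ± 0.861 and 18.3 ± 1.04), EIF2AK1, PPP1R15B, EIF2B4, EIF2AK2, EIF2B5, EIF2AK4 and EIF2AK3 (0.335 ± 0.146 and 0.414 ± 0.0727). With the longest annotated transcript as the length, the order differed between the DMSO groups. EIF2B5 then stood above EIF2AK4 in QRICH1 KO DMSO and below it in WT DMSO, and EIF2B4 stood above PPP1R15B in both. Under Tm, PPP1R15A led with 65.5 ± 4.56 CPM per kb in QRICH1 KO and 72.7 ± 7.41 in WT, above every library of the next gene, EIF2B1 (24.3 ± 3.43 and 23.0 ± 4.42). Neighbours whose libraries overlapped, and whose order is therefore not resolved, were EIF2B1 and EIF2S1 in both Tm groups, EIF2B1, PPP1R15A and EIF2S1 in WT DMSO, PPP1R15B with EIF2B4 in QRICH1 KO DMSO, and EIF2AK1, PPP1R15B and EIF2B4 in the other 3 groups. At the low end EIF2AK3 and EIF2AK4 overlapped in both Tm groups, as did EIF2B5 and EIF2AK3 in WT Tm. The mean of the 3 eIF2B subunits over EIF2S1 was 0.563 ± 0.0711 in QRICH1 KO Tm, 0.721 ± 0.00861 in QRICH1 KO DMSO, 0.554 ± 0.14 in WT Tm and 0.636 ± 0.112 in WT DMSO. EIF2B1 had the highest level of the 3 in every group and weighs most in this mean, which leaves out EIF2B2 and EIF2B3.

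**Figure D4:**
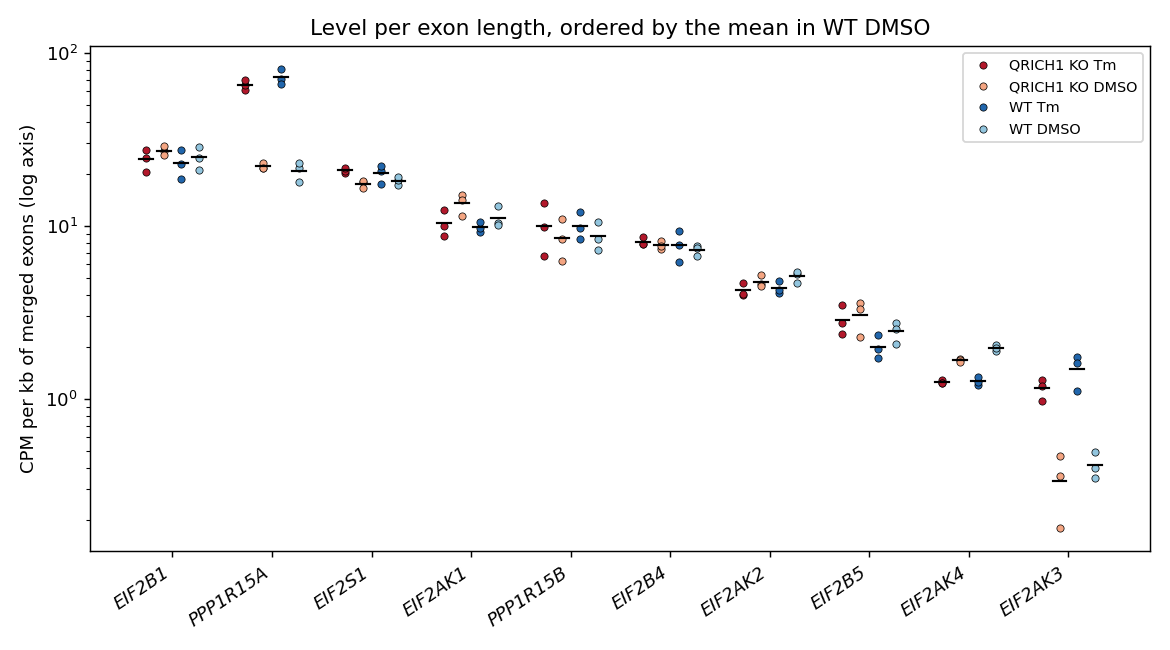
CPM per kb of merged exons (vertical log axis) of the 10 genes, ordered by their mean in WT DMSO, with a point for each library and bars for group means. PPP1R15A stands at 65.5 in QRICH1 KO Tm and 72.7 in WT Tm, above all others, and EIF2AK3 is lowest in both DMSO groups, at 0.335 in QRICH1 KO and 0.414 in WT.

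Between the genotypes no difference was called in any of the 10 genes. QRICH1 KO Tm against WT Tm asks whether the stressed levels depend on QRICH1: 0 of 10 genes were called, where 1.17% of all genes tested were. An unadjusted p under 0.05 was found for 1 of the 10 (EIF2B5), beside 1513 of all 11323 genes. QRICH1 KO DMSO against WT DMSO gave 0 of 10, with a background of 0.0971%. None of the 10 had an unadjusted p under 0.05 there, beside 1027 of all 11323 genes. In the interaction, the difference between the Tm responses (QRICH1 KO minus WT), 0 of 10 genes were called and none had an unadjusted p under 0.05, and of all genes tested 0% were called, with 774 at an unadjusted p under 0.05. DESeq2 called none of the 10 in these 3 comparisons and 289, 60 and 46 genes in all. The interval was widest for EIF2AK3 among the genes called with Tm. The difference in Tm response was -0.06 for EIF2AK3 (95% interval -1.01 to 0.89 on the log2 scale, adjusted p = 0.991), -0.24 for PPP1R15A (-0.58 to 0.10, adjusted p = 0.843) and 0.23 for EIF2AK4 (-0.16 to 0.62, adjusted p = 0.857).

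Some levels still stood apart between genotypes without passing the test. EIF2B5 was higher in all 3 QRICH1 KO Tm libraries than in any WT Tm library, by 0.50 on the log2 scale (SE 0.199, adjusted p = 0.274), and 9.41% of all genes tested were separated in that direction. EIF2AK4 was lower in all 3 QRICH1 KO DMSO libraries than in any WT DMSO library, at -0.24 on the log2 scale (SE 0.127, adjusted p = 0.59), and 6.09% of all genes were separated in that direction. For PPP1R15A the log2 fold change of QRICH1 KO over WT was -0.15 (-0.39 to 0.09) under Tm and 0.08 (-0.16 to 0.33) under DMSO. For EIF2AK3 it was -0.37 (-0.98 to 0.24) under Tm and -0.31 (-1.02 to 0.39) under DMSO.

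The stress itself was strong in the same libraries and HSPA5 differed between genotypes under Tm. HSPA5, which encodes the ER chaperone BiP that keeps PERK inactive when bound to it, had 16164, 17929.6 and 15296 CPM in QRICH1 KO Tm, against 1139, 1185 and 1055 CPM in QRICH1 KO DMSO. WT Tm libraries had 26394, 30882 and 26275 CPM and WT DMSO libraries 1200.1, 968 and 1074 CPM. Under Tm it was lower in QRICH1 KO than in WT (log2 -0.76, SE 0.124, adjusted p = 0.00484), while its interaction of -0.82 was not called (adjusted p = 0.142; DESeq2 adjusted p = 1.57e-04). Downstream of phosphorylated eIF2, the transcription factor ATF4 rose 2.44-fold with Tm in QRICH1 KO and 3.23-fold in WT, and DDIT3, which encodes CHOP, rose 13.7-fold in QRICH1 KO and 21.2-fold in WT. SESN2, a stress-induced regulator of TORC1, rose 5.46-fold in QRICH1 KO and 11.6-fold in WT, and its interaction of -1.09 was not called (SE 0.192, adjusted p = 0.0721; DESeq2 adjusted p = 3.22e-04). Its levels were 72.5 ± 4.06 CPM in QRICH1 KO Tm and 92.9 ± 11.2 CPM in WT Tm (log2 -0.36, adjusted p = 0.203), and 13.3 ± 1.91 CPM in QRICH1 KO DMSO and 7.94 ± 0.749 CPM in WT DMSO (SD, n = 3; log2 0.73, edgeR adjusted p = 0.0719, DESeq2 adjusted p = 0.0105). Every QRICH1 KO DMSO library lay above every WT DMSO library, but the share of all genes separated in that direction is not given here. In the other direction it was 6.09% of all genes tested, which is not a background for SESN2. The interaction of ATF4 was -0.40 (SE 0.171, adjusted p = 0.69) and that of DDIT3 was -0.63 (SE 0.25, adjusted p = 0.651). For TRIB3, an ATF4 target that encodes a pseudokinase, it was -0.91 (SE 0.227, adjusted p = 0.266). For the stress genes CHAC1 and DNAJB9 it was -1.18 (SE 0.419, adjusted p = 0.538) and -0.51 (SE 0.175, adjusted p = 0.521). The TRIB3 interaction was called by DESeq2 (-0.92, adjusted p = 0.0189), with no filter on low counts (adjusted p = 9.64e-04) and without library 3 of WT DMSO (-1.19, adjusted p = 0.0302).

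Calls with Tm were also counted in a list of 25 partners of the pathway, chosen with earlier results of these data known. In QRICH1 KO cells 5 of the 25 rose, 0 fell and 20 passed in neither direction; the median log2 fold change was 0.067. In WT cells 10 rose, 2 fell and 13 passed in neither direction; the median was 0.128. Of all genes tested, 15.6% were called in QRICH1 KO and 23.8% in WT. A list chosen this way cannot test whether partners respond more often than other genes. The genotypes share no libraries in these comparisons, and a call in WT alone does not show a difference between them: in the interaction 0 of 25 were called, with 4 at an unadjusted p under 0.05 and none by DESeq2. In QRICH1 KO against WT under Tm 0 of 25 were called by edgeR, with 9 at an unadjusted p under 0.05 (1513 of all 11323 genes), and DESeq2 called 3, which were DNAJC3, EIF2S2 and EIF2D, all lower in QRICH1 KO.

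**Figure D5:**
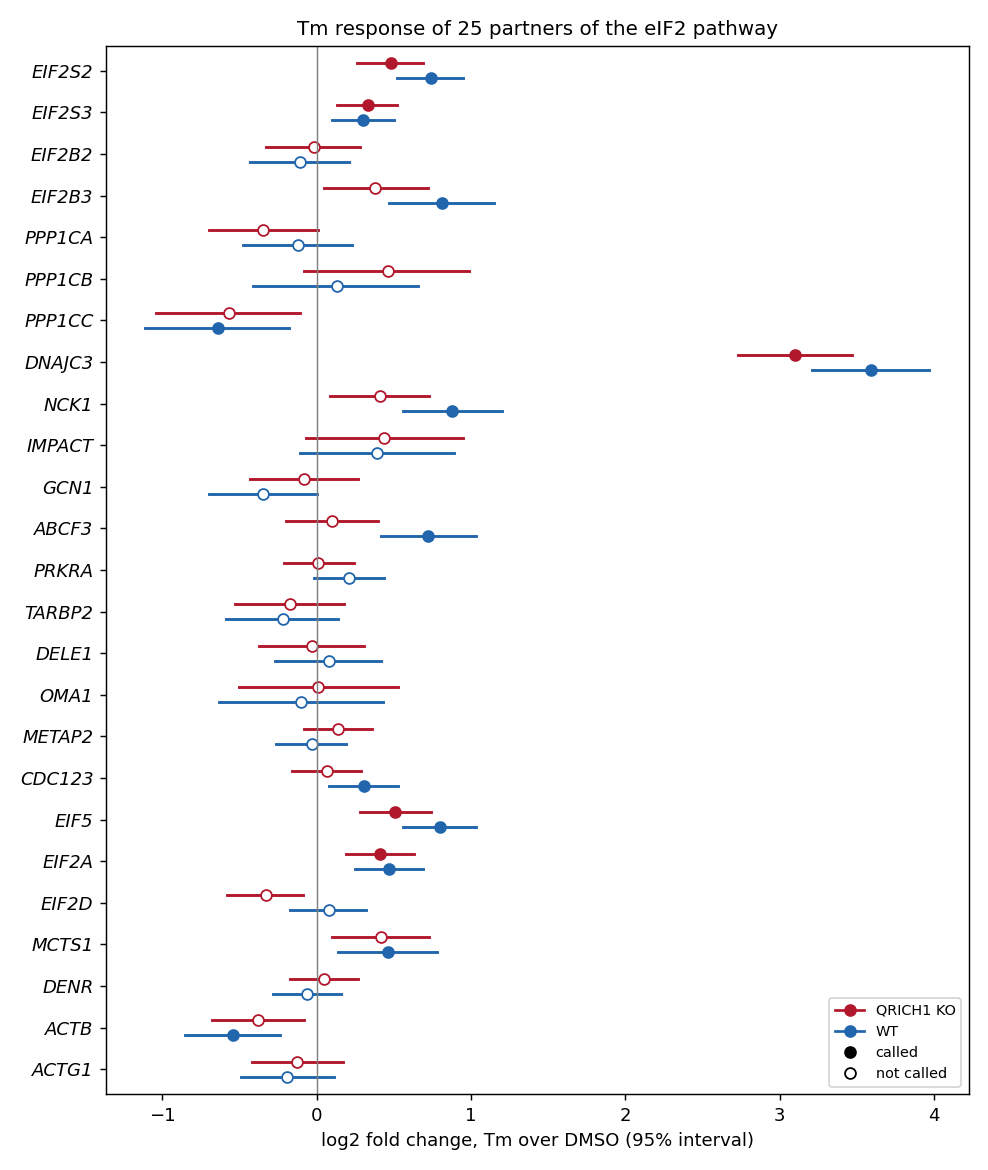
Log2 fold change of Tm over DMSO (horizontal axis) with its 95% interval for the 25 listed partners, in QRICH1 KO (red) and WT (blue), filled where called. DNAJC3 stands far right at 3.10 in QRICH1 KO and 3.59 in WT, and the other filled points lie within 1 log2 unit of 0.

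Among regulators of the kinases, DNAJC3, which encodes the ER co-chaperone P58IPK, an inhibitor of PKR and PERK, moved most. Its level was 399, 455 and 549 CPM in QRICH1 KO Tm, against 44.4, 54.2 and 65.4 CPM in QRICH1 KO DMSO, and 741, 736 and 673 CPM in WT Tm, against 43.8, 61.7 and 72.0 CPM in WT DMSO. On the log2 scale it rose by 3.10 in QRICH1 KO (8.57-fold, SE 0.177, adjusted p = 4.92e-10) and by 3.59 in WT (SE 0.181, adjusted p = 4.07e-11). Every QRICH1 KO Tm library lay below every WT Tm library, as for 9.06% of all genes tested, and the log2 difference of -0.61 (SE 0.163) had an adjusted p of 0.0793. That difference was called in 5 alternatives, by DESeq2 (0.0129), with no filter on low counts (1.65e-04), with only the groups compared (0.0343), with a replicate block (0.0163) and without library 3 of both QRICH1 KO groups (0.0337). NCK1 is an adaptor that recruits phosphatase to eIF2α and binds PERK. Its RNA rose 1.84-fold in WT (adjusted p = 3.31e-04) and changed 1.33-fold in QRICH1 KO (adjusted p = 0.0763). ABCF3 is the human relative of yeast GCN20, a partner of GCN1 in GCN2 activation in yeast. It rose 1.65-fold in WT (adjusted p = 0.00123) and changed 1.07-fold in QRICH1 KO (adjusted p = 0.712). The interactions of NCK1 (-0.47, adjusted p = 0.727) and ABCF3 (-0.62, adjusted p = 0.447) were not called. GCN1, IMPACT, PRKRA, TARBP2, DELE1 and OMA1 were not called in either genotype. GCN1 was called as lower in WT with no filter on low counts (adjusted p = 0.043) and without library 3 of WT DMSO (adjusted p = 0.0256).

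Among the other subunits, EIF2S2, which encodes eIF2β, rose 1.39-fold in QRICH1 KO (adjusted p = 0.00327) and 1.66-fold in WT (adjusted p = 2.83e-05). Under Tm it had 117, 131 and 139 CPM in QRICH1 KO, against 166, 170.3 and 166 CPM in WT, without overlap (log2 -0.38, SE 0.101, edgeR adjusted p = 0.0846, DESeq2 adjusted p = 0.00626). Of all genes tested, 9.06% were separated in that direction. EIF2S3, which encodes eIF2γ, rose 1.25-fold in QRICH1 KO (adjusted p = 0.0241) and 1.23-fold in WT (adjusted p = 0.0255). Its reads are uncertain because a near-identical copy exists, and its call was lost in 7 of 13 alternatives in QRICH1 KO and 7 of 12 in WT. EIF2B3, which encodes eIF2Bγ, rose 1.75-fold in WT (adjusted p = 0.0012) and changed 1.3-fold in QRICH1 KO (adjusted p = 0.12). Its interaction of -0.43 was not called (adjusted p = 0.768). EIF2B2 (eIF2Bβ) was not called in either genotype. EIF5, which encodes the GTPase-activating partner of eIF2, rose 1.43-fold in QRICH1 KO (adjusted p = 0.00361) and 1.74-fold in WT (adjusted p = 3.12e-05).

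EIF2A, an initiator tRNA-binding factor that is not a subunit of eIF2, rose 1.33-fold in QRICH1 KO (adjusted p = 0.0111) and 1.39-fold in WT (adjusted p = 0.00257). The call in QRICH1 KO was lost without library 1 of QRICH1 KO Tm (adjusted p = 0.0511) and without library 3 of both QRICH1 KO groups (adjusted p = 0.0586). MCTS1, whose product acts with DENR in recycling and reinitiation, rose 1.38-fold in WT (adjusted p = 0.0348), a call lost in 6 of 12 alternatives. It changed 1.34-fold in QRICH1 KO (adjusted p = 0.0684, called in 1 of 13 alternatives). CDC123, an assembly factor of eIF2, rose 1.24-fold in WT (adjusted p = 0.0471), a call lost in 8 of 12, and changed 1.05-fold in QRICH1 KO (adjusted p = 0.738). The interactions of MCTS1 (-0.04, adjusted p = 0.989) and CDC123 (-0.24, adjusted p = 0.827) were not called. The genes that fell in WT were PPP1CC, a catalytic subunit of protein phosphatase 1 (1.56-fold lower, adjusted p = 0.0428, with overlapping libraries), and ACTB (1.46-fold lower, adjusted p = 0.01), whose product actin is a cofactor of the PPP1R15 phosphatases and whose reads may be shared with pseudogenes. The PPP1CC call in WT was lost in 5 of 12 alternatives, each without 1 library (adjusted p 0.0626 to 0.306, the highest without library 3 of WT DMSO), and that of ACTB in 2 of 12, without library 1 of WT DMSO (adjusted p = 0.06) and without library 1 of WT Tm (adjusted p = 0.0541). In QRICH1 KO neither was called, with log2 fold changes of -0.57 for PPP1CC (adjusted p = 0.0862, called in 3 of 13 alternatives) and -0.38 for ACTB (adjusted p = 0.0852, called in 2 of 13). For both genes all QRICH1 KO Tm libraries lay below all QRICH1 KO DMSO libraries, as for 15.5% of all genes tested. The catalytic subunits PPP1CA and PPP1CB were not called in either genotype, nor were METAP2, EIF2D, DENR and ACTG1. In QRICH1 KO, PPP1CA (adjusted p = 0.0384) and PPP1CB (adjusted p = 0.0109) were called with no filter on low counts. EIF2D was called there as lower with Tm by DESeq2 (adjusted p = 0.0414) and with upper quartile scaling (adjusted p = 0.0406). EIF2D, which can deliver initiator tRNA without eIF2, had 34.4, 30.4 and 36.4 CPM in QRICH1 KO Tm, against 44.5, 47.0 and 46.5 CPM in WT Tm, without overlap (log2 -0.44, SE 0.117, edgeR adjusted p = 0.0791, DESeq2 adjusted p = 0.0178). Libraries of 9.06% of all genes tested were separated in that direction.

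For the 3 genes called in WT, the genes with the nearest profile over the 12 libraries were found by the smallest root mean square difference in log2 CPM after each gene's mean was removed. EIF2AK3 was nearest to SMIM14 (0.272), TMEM263 (0.288) and SGK3 (0.292). PPP1R15A was nearest to ZNF165 (0.128), SLC31A1 (0.131) and TES (0.132), and EIF2AK4 to HMGB3 (0.0893), SELENOW (0.0951) and SLC52A3 (0.101). The 3 neighbours of EIF2AK3 had log2 fold changes with Tm of at least 1.53 in QRICH1 KO and of 1.80 to 2.01 in WT, those of PPP1R15A 1.53 to 1.57 in QRICH1 KO and 1.80 to 2.07 in WT, and those of EIF2AK4 -0.49 to -0.31 in QRICH1 KO and -0.72 to -0.62 in WT. The neighbours were chosen for closeness over these same libraries, so fold changes like those of the member follow from the choice. The larger distances for EIF2AK3 stand beside its low mean level of 4.61 CPM over the 12 libraries, against 140.1 CPM for PPP1R15A and 18.4 CPM for EIF2AK4.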

How the data were processed

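RNA from 12 HT29 cultures was made into libraries by a modified Smart-seq2 protocol with Nextera XT and sequenced on an Illumina NextSeq, per the labels' protocols. The authors deposited whole-number read counts per gene, unnormalised, in 1 table. Trimmomatic, STAR, DESeq2 and build hg38 were used, per the submitters' processing notes; the sources used here do not give roles, versions or the counting tool. IDs with the version removed matched a symbol table for 19893 of 20015 genes, and positions and exon lengths come from GENCODE 29. Groups come from the sample titles.

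Counts were scaled by TMM, filtered with filterByExpr (minimum count 10) and fitted in edgeR 4.0.16 (R 4.3.3) by quasi-likelihood with 4 group means over all 12 libraries (common biological coefficient of variation 0.155). Tests are two-sided, and intervals are 95%. The pipeline was tested on simulated data. Totals were 6856736 to 17861844 counts, without molecular identifiers. Libraries of a group differed beyond sampling noise. Same-numbered libraries were not paired in the main fit, and the labels do not state a pairing (6 of 18 correlations of deviations exceeded 0.1). The alternatives were other scalings, no count filter, DESeq2 1.42.0, only the groups compared, a replicate block, each library left out, and both QRICH1 KO libraries 3 left out. Named genes were the members, the 25 partners, 7 stress genes, QRICH1 and the 3 nearest profiles of each member called in WT. The members and lists were chosen with earlier results of these data known.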

Additional observations from a re-analysis of the deposited data

How the results depend on the processing

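The calls of EIF2AK3 and PPP1R15A in both genotypes and of EIF2AK4 in WT held in every alternative run, with log2 fold changes of 1.47 to 2.08 in QRICH1 KO and 1.68 to 1.99 in WT for EIF2AK3, 1.71 to 1.88 in WT for PPP1R15A (adjusted p at most 8.68e-07 in QRICH1 KO), and -0.69 to -0.60 in WT for EIF2AK4. Of the 690 values of single members under alternatives, 678 kept their side of the threshold, 9 lost a call (all EIF2AK4 in QRICH1 KO), 3 gained one (all EIF2AK1 in QRICH1 KO) and 0 of the called values changed sign. Among values never called, 44 turned sign, all where the main log2 fold change was at most 0.23 in size (PPP1R15B with Tm in QRICH1 KO, at -0.05 without 1 library, is one). The number of members called stayed at 3 in WT, was 2 or 3 in QRICH1 KO and stayed at 0 in the other comparisons. Counts over all genes moved more, and the cause was not tested. With QRICH1 KO against WT under Tm (132 genes called) the count was 279 with no filter, 289 by DESeq2 and 56 to 78 with 1 of these libraries left out. Under DMSO (11 genes) it was 138 with no filter, 60 by DESeq2, 6 with only the groups compared, 59 without both QRICH1 KO libraries 3 and 5 to 39 with 1 library left out. The interaction (0 genes) gave 44 with no filter, 46 by DESeq2 and 0 to 4 with 1 library left out. Tm in QRICH1 KO (1768 genes) gave 1109 to 1769 with 1 library left out. Of the 25 partners, 12 were called in WT, and 7 to 11 with 1 library left out (7 without library 1 of WT Tm). In QRICH1 KO 5 were called, 8 with no filter and 3 without both QRICH1 KO libraries 3. Under Tm 0 differed between genotypes, 3 by DESeq2 and 1 each with no filter, with only the groups compared, with the replicate block and without both QRICH1 KO libraries 3; under DMSO 0 did, and 1 with no filter. The labels do not state whether same-numbered libraries belong together. Correlations of same-numbered libraries were -0.186 to 0.265, the highest between libraries 3 of QRICH1 KO Tm and QRICH1 KO DMSO. Those of differently numbered libraries of different groups were -0.241 to 0.226, so the ranges largely overlapped. A replicate block called 2823 genes in WT, 1888 in QRICH1 KO, 161 under Tm, 17 under DMSO and 0 in the interaction. It changed no member's call. Upper quartile scaling gave 46.7% of called genes as higher in WT (main 53.2%) and 51.0% in QRICH1 KO (main 58.2%). Levels per kb depend on the exon length used. Depth limits EIF2AK3 most, with 14 to 115 reads per library.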
